A study of Mus musculus and Rattus norvegicus with 37 samples.

Results

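Ifi30 and 7 genes of the MHC class II antigen presentation pathway (Cd74, H2-Aa, H2-Ab1, H2-Eb1, H2-DMa, Ciita and Ctss) were followed across the livers of 21 mice and 16 rats. The 8 genes were taken by symbol from 48440 entries in each of 2 mouse tables. Of these genes 4 (Ifi30, Cd74, Ciita and Ctss) were also listed among the 32750 entries of each of 2 rat tables, where the H2 genes do not exist under these names. Ifi30 was picked because it rose with miR-29 inhibition, so its mouse response is given as a description with no test. The other members entered as partners of Ifi30 in the pathway.

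All mice were C57BL/6J females and received a single subcutaneous injection of saline or of LNA29, and livers were taken on day 7 from non-fasted animals. LNA29 is a pair of locked nucleic acid oligonucleotides, directed at miR-29a and at miR-29b/c, given at 20 mg/kg each. WT/Floxed mice (8 LNA29, 5 saline) pooled 7 WT mice of 9 to 11 weeks with 6 mice carrying the floxed Sirt1 allele of 15 to 20 weeks, after the authors had excluded 1 floxed saline mouse. Mice labelled L-Sirt1 KO (4 LNA29, 4 saline) were 15 to 20 weeks old and were described as lacking Sirt1 in the liver, and the Cre driver is not given in the sources used here. The rats were male: Zucker Fatty rats (ZFR, obese, n = 4) against Zucker Lean rats (ZLR, n = 4) at 5.5 months, and 3-month-old ZFR given vehicle (n = 4) or 20 mg/kg BT2 daily for 1 week (n = 4), a compound that blocks the kinase of the branched-chain keto acid dehydrogenase complex.

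MHC class II molecules carry peptides from endocytosed proteins to the surface of antigen presenting cells for CD4+ T cells to read. The α and β chains (H2-Aa, H2-Ab1 and H2-Eb1 in mice) assemble in the endoplasmic reticulum on the invariant chain, Cd74, which is then cut away in late endosomes, its last steps by cathepsin S (Ctss), before H2-DM (H2-DMa is its α chain) exchanges the remaining stub for a peptide. Ifi30 encodes GILT, an interferon-gamma inducible lysosomal thiol reductase that opens the disulfide bonds of proteins to be cut, and Ciita is the transactivator on which transcription of the class II genes depends. In liver the pathway is used by Kupffer cells, dendritic cells, B cells and sinusoidal endothelial cells rather than by hepatocytes.

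The mature miR-29 strands are shown first, because the Ifi30 transcript holds a match to them. The sequences are those of RefSeq for GRCm38.p6, 5′ to 3′, with the seed (bases 2 to 8) in capitals, and all share it.
miR-29a-3p: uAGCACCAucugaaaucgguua
miR-29b-3p: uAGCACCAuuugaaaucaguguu
miR-29c-3p: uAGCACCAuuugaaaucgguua

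The GENCODE M21 annotation of GRCm38 places Ifi30 (ENSMUSG00000031838.8) at chr8:70762774-70766663 on the minus strand and classes it as a processed transcript, so it has no annotated UTR. Its 980-base transcript of 8 exons carries a reading frame of 248 codons. A seed match, TGGTGCT, starts at base 935 of the transcript, at base 156 after the stop codon. The complementary run went on beyond the seed, to 38 bases before the end of the transcript, and reached 15 bases with miR-29b-3p and miR-29c-3p and 9 bases with miR-29a-3p. The window below is read from the transcript strand, with the complementary run in capitals, and lies at chr8:70762805-70762833.
Ifi30 window for miR-29b-3p and miR-29c-3p: gccttatTTTCAAATGGTGCTAaatttaa

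Among 21153 genes with an annotated 3′ UTR, 2986 (14.1%) held TGGTGCT and 629 (2.97%) held TGGTGCTA, while 1 gene (Cd46, named after the search, 0.00473%) held a complementary run of 15 or more bases. The limit of 15 was taken from Ifi30 itself, which has no annotated UTR and is not among these genes, so the share is a description only. Of the other members, H2-Ab1 held the seed match at 2 places before its stop codon and H2-DMa at 1 place before its reading frame. The chosen transcripts of Cd74, H2-Aa, H2-Eb1, Ciita and Ctss held none, although 1 of 8 annotated Ciita transcripts did. A match of letters is a description and does not show binding.

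Promoters are shown because most class II genes share an upstream module, the X box bound by the RFX complex and the Y box bound by NF-Y, on which Ciita is recruited. RefSeq promoters of GRCm38.p6 (250 bases before to 50 after the start) were at hand for 5 members (Ifi30, H2-Aa, H2-Eb1, H2-DMa and Ctss) and not for the other 3. They were searched on both strands for GCAAC (an X box core), GATTGG (a Y box core, also contained in the longer CTGATTGG) and an interferon response element core (GAAA, any 2 bases, GAAA). H2-Aa and H2-Eb1 held an X box core followed by CTGATTGG. The 100 bases before each start are printed with both motifs in capitals, for H2-Aa the minus strand of chr17:34287824-34287923 and for H2-Eb1 the plus strand of chr17:34305767-34305866.
H2-Aa promoter: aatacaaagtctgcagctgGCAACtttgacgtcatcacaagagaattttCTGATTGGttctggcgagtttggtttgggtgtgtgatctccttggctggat
H2-Eb1 promoter: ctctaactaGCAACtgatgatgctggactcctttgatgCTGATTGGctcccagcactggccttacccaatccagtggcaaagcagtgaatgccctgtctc

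The X box core began 81 bases before the start in H2-Aa and 91 in H2-Eb1, with 27 and 26 bases between it and the shorter Y box core. GCAAC alone was in 35.2% of 32851 mouse promoters, GATTGG in 16.1% and CTGATTGG in 4.1%. GCAAC followed by GATTGG with 20 to 32 bases between was in 75 promoters (0.228%), among them H2-Oa, H2-Ob and H2-Eb2. Ifi30, Ctss and the class II member H2-DMa (in either of its windows) did not hold this pair, and Ctss held the interferon response element core, as did 3.44% of promoters. The H2-DMa windows, chr17:34122582-34122881 and chr17:34125268-34125567, lie upstream of its seed match near chr17:34135314. Sequence closer to its reading frame was not searched, so the pair may lie there unseen.

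All values are normalized counts: gene counts estimated by the authors and scaled by their DESeq2 factors, each of the 4 tables on its own. Mouse libraries were estimated to hold 42.6 to 78 M reads, with 1 read worth 0.746 to 1.37 normalized counts, so every member in every mouse library rested on far more than 1 read. Rat libraries ranged from 0.188 to 58.5 M reads, and 6 of the 16 held under 1 M, where 1 read was worth up to 10.5 normalized counts. Sirt1 stood at 535 to 617 in libraries labelled L-Sirt1 KO and at 493 to 699 in WT/Floxed libraries, in tables scaled separately, so its gene-level count did not set these labels apart. A gene-level count also holds reads from exons outside a deletion, and the deleted part is not given in the labels. Hepatocyte markers summed to 4210000 to 7320000 per mouse library, and no marker of the leukocyte, Kupffer cell, dendritic, B or T cell lists was at 0 in any mouse library.

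Cd74 was the most abundant member per kilobase of transcript in saline livers and Ciita the least abundant, in both mouse tables. Cd74 (chr18:60803848-60812652) stood at 4880 ± 1080 normalized counts per kb in WT/Floxed saline livers (SD, n = 5) and at 3990 ± 359 in L-Sirt1 KO-labelled saline livers (SD, n = 4). The chains followed on the same per-kb scale. H2-Aa (chr17:34282744-34287823) stood at 2260 and 1830 in the respective tables, H2-Ab1 (chr17:34257689-34269419) at 1990 and 1690, and H2-Eb1 (chr17:34305867-34316674) at 1290 and 1090. Ctss (chr3:95526786-95556403) lay between H2-Ab1 and H2-Eb1 at 1740 and 1580. Ifi30 came sixth with 786 ± 89.6 and 745 ± 44.7 per kb, ahead of H2-DMa (chr17:34119541-34139101, 163 and 155) and Ciita (chr16:10480059-10528418, 19.0 and 16.9). In WT/Floxed livers, neighbours from H2-Aa down to Ifi30 overlapped, while Cd74, H2-DMa and Ciita each stood clear of their neighbours. Bases of exons shared with a gene on the opposite strand made up 8.66% of Ifi30, 10.4% of H2-DMa (with Brd2) and 3.45% of Ciita (with Dexi), and whether the counting used strand is not given in the sources used here.

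Ifi30 was the member whose counts set LNA29 livers apart from saline livers in both mouse tables. In WT/Floxed mice the 4 WT livers with LNA29 held 1062, 1118, 1676 and 3016 normalized counts of Ifi30 and the 4 floxed livers 1190, 1203, 1820 and 1821. The 3 WT saline livers held 695.8, 728.2 and 831.7 and the 2 floxed saline livers 703.1 and 893.7. Every LNA29 liver thus lay above every saline liver, and WT mouse 4 stood well above the rest. The means were 1610 ± 650 (SD, n = 8) and 771 ± 87.8 (SD, n = 5), a ratio of 2.09 and a difference of 0.99 on the log2(normalized count + 1) scale.

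In mice labelled L-Sirt1 KO, Ifi30 read 1522, 1395, 1558 and 1422 with LNA29 and 740.5, 666.2, 765.2 and 748.3 with saline. These groups did not overlap either, and the spread within each was narrow. The means were 1470 ± 78 and 730 ± 43.8 (SD, n = 4 each), a ratio of 2.02 and a log2 difference of 1.01. Among all genes tested, 0.942% were higher without overlap in WT/Floxed mice and 3.65% in L-Sirt1 KO-labelled mice. Nothing is read from that comparison, since Ifi30 was picked on these contrasts. Within WT mice the log2 difference was 1.06 and within floxed mice 0.896.

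**Figure D1:**
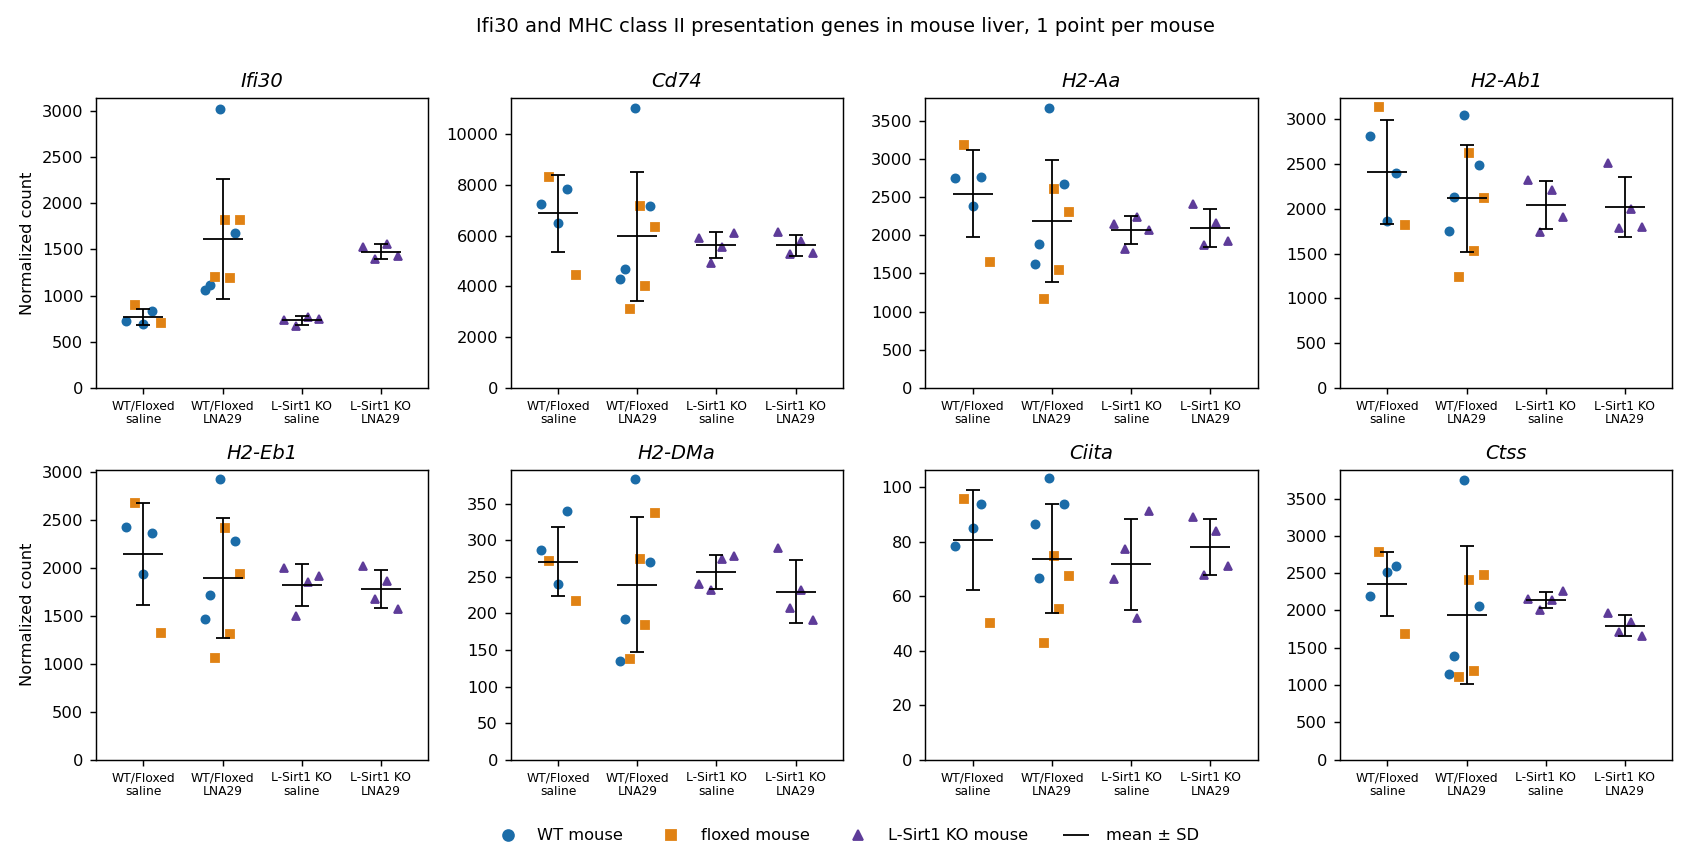
Normalized counts (y axis, linear, from 0) of the 8 genes in each of 21 mouse livers by group, with WT mice as circles, floxed mice as squares and L-Sirt1 KO-labelled mice as triangles. Black lines are the mean ± SD. Ifi30 with LNA29 lies at 1062 to 3016 in WT/Floxed and 1395 to 1558 in L-Sirt1 KO-labelled livers, above all saline livers (666.2 to 893.7), while LNA29 and saline livers overlap for the other genes except Ctss in L-Sirt1 KO-labelled mice.

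The class II members did not follow Ifi30. Calls required a fold change of more than 1.2, a mean of more than 50 normalized counts, p below 0.05 and adjusted p below 0.2 (limma, Benjamini-Hochberg over all genes tested). Of the 7 class II members 0 were called in WT/Floxed mice, against 4.35% of 15811 genes, and 0 had an unadjusted p-value under 0.05. Among L-Sirt1 KO-labelled mice 0 of 7 were called, against 1.87% of 15885 genes, and 1 (Ctss) had an unadjusted p-value under 0.05. Their median log2 difference was -0.25 in WT/Floxed and -0.02 in L-Sirt1 KO-labelled mice, where the median of all genes was 0. Whole livers were measured, so fewer cells of a type and less RNA per cell cannot be told apart.

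Cd74, the invariant chain, read 3100 to 11020 (median 5514) in the 8 WT/Floxed LNA29 livers and 4446, 6508, 7266, 7854 and 8309 in the saline livers. The saline range lay inside the LNA29 range. The log2 difference was -0.28 (95% confidence interval -0.83 to 0.27), with an adjusted p of 0.717 by limma. For L-Sirt1 KO-labelled mice Cd74 read 6139, 5269, 5782 and 5306 with LNA29 and 5905, 4943, 5558 and 6093 with saline, a log2 difference of 0.00 (-0.21 to 0.21) with an adjusted p of 0.996 by limma.

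The chains moved little. H2-Aa, the α chain of I-A, differed by -0.27 (-0.78 to 0.23) in WT/Floxed and 0.01 (-0.23 to 0.25) in L-Sirt1 KO-labelled mice on the log2 scale. H2-Ab1, its β chain, differed by -0.20 (-0.64 to 0.23) and -0.02 (-0.32 to 0.28), and H2-Eb1, the β chain of I-E, by -0.21 (-0.70 to 0.28) and -0.03 (-0.29 to 0.24). H2-DMa, of the peptide exchanger, differed by -0.25 (-0.78 to 0.27) and -0.17 (-0.51 to 0.17). In the L-Sirt1 KO-labelled table the intervals of all 3 chains therefore left out any change beyond 0.32 in either direction, against the difference of 1.01 for Ifi30. The WT/Floxed intervals were wider and reached -0.78.

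Ciita, the transactivator, was the lowest member and read 42.82 to 103.4 (median 71.07) in WT/Floxed LNA29 livers and 50.02 to 95.72 (median 85.06) in saline livers. Its log2 difference was -0.14 (-0.61 to 0.33). The L-Sirt1 KO-labelled livers held 67.87 to 89.26 with LNA29 and 52.04 to 91.24 with saline, a difference of 0.14 (-0.32 to 0.60), and the groups overlapped in both tables.

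Ctss was the member with the largest difference from saline after Ifi30, and it ran the other way. In L-Sirt1 KO-labelled mice it read 1970, 1718, 1842 and 1663 with LNA29 and 2152, 2002, 2135 and 2264 with saline, so that every LNA29 liver was below every saline liver, as was the case for 3.3% of genes. The log2 difference was -0.25 (SE 0.0854) with an adjusted p of 0.304 by limma, which missed the limit. A two-sided exact permutation test of 4 against 4 gave p = 0.0286, the smallest that 70 splits can give. In WT/Floxed mice Ctss read 1106 to 3748 (median 1728) with LNA29 and 1686 to 2788 (median 2522) with saline, a difference of -0.39 (-0.97 to 0.19, adjusted p = 0.598 by limma). By the same exact permutation test over 1287 splits, the 7 class II members of WT/Floxed mice gave two-sided p-values of 0.233 to 0.55.

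**Figure D2:**
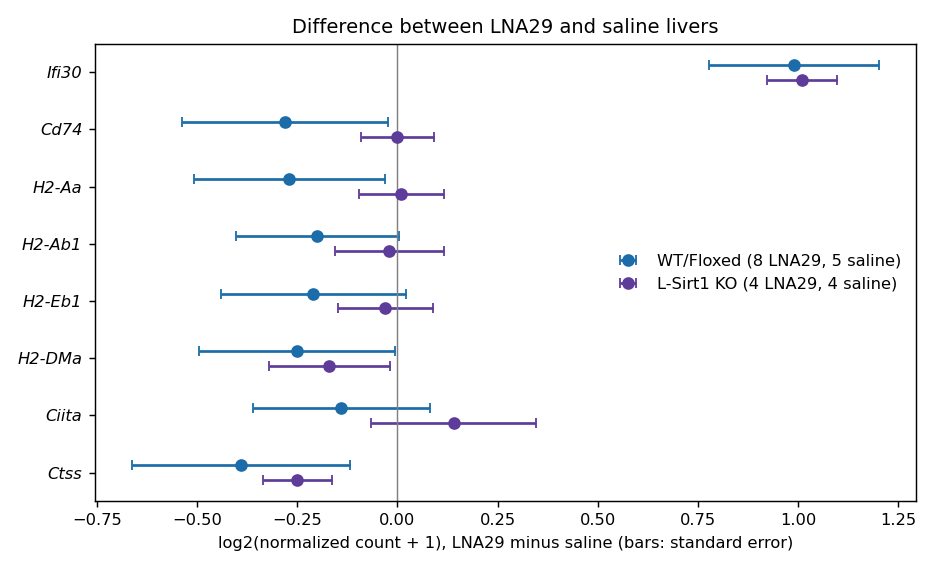
Difference between LNA29 and saline livers on the log2(normalized count + 1) scale (x axis) for each of the 8 genes (y axis), in WT/Floxed mice (blue, 8 against 5) and L-Sirt1 KO-labelled mice (purple, 4 against 4). Points are estimates and bars are standard errors. Ifi30 lies at 0.99 and 1.01, while the class II members lie between -0.39 and 0.14.

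Whether the LNA29 difference itself changed with genotype was tested as an interaction over both mouse tables. Of the 7 class II members 0 were called at an adjusted p under 0.2, against 0.0449% of 15601 genes, and 0 had an unadjusted p-value under 0.05. The estimates (L-Sirt1 KO-labelled minus WT/Floxed) were 0.08 for H2-DMa to 0.29 for H2-Aa (-0.39 to 0.97), all above 0 and all with intervals that spanned 0. No other gene of the pathway was called, and the largest term among the further class II genes was that of H2-DMb2 (0.74, -0.16 to 1.63) and among the interferon-gamma genes that of the GTPase Gbp2 (0.46, adjusted p = 0.713 by limma).

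The other genes of the pathway gave few calls. Of 5 further mouse class II genes (H2-DMb1, H2-DMb2, H2-Oa, H2-Ob and H2-Eb2), 4 were expressed above the minimum and 0 were called in either table. H2-DMb1, the β chain of H2-DM, showed the largest difference in WT/Floxed mice (-0.42, adjusted p = 0.449), and H2-DMb2 in L-Sirt1 KO-labelled mice (0.42, adjusted p = 0.599, limma). Of 7 factors that bind class II promoters, Rfxap, a subunit of the RFX complex, was called higher in WT/Floxed mice. It read 763.6 to 828.7 with LNA29 and 505.4 to 685.3 with saline, without overlap, and differed by 0.38 (SE 0.0818, adjusted p = 0.0349 by limma). Of all genes in WT/Floxed mice, 4.35% were called in either direction and 0.942% were higher without overlap. Rfxap overlapped in L-Sirt1 KO-labelled mice (521.2 to 782.9 against 550.2 to 845.1) and 0 of the 7 factors were called. Rfx5, another RFX subunit, differed by -0.33 (adjusted p = 0.371) in WT/Floxed and 0.36 (adjusted p = 0.303) in L-Sirt1 KO-labelled mice. The interaction term of Rfx5 was 0.69 (SE 0.222) and its adjusted p of 0.351 by limma missed the limit.

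Of 10 genes of interferon-gamma signalling above the minimum, 1 was called lower in WT/Floxed mice and 0 in L-Sirt1 KO-labelled mice. Of all genes, 4.35% and 1.87% were called in the respective tables in either direction. The induced chemokine Cxcl9 differed by -0.59 (adjusted p = 0.463) in WT/Floxed and -0.22 (adjusted p = 0.53) in L-Sirt1 KO-labelled mice by limma. Of 7 lysosomal genes, 6 proteases and the protease inhibitor Cst3, 0 were called by limma in either table. Ctsb, cathepsin B, differed by -0.14 in WT/Floxed mice (adjusted p = 0.285 by limma). Ctsd, cathepsin D, differed by -0.15 in L-Sirt1 KO-labelled mice (adjusted p = 0.484 by limma). As a reference, all 5 matrix genes taken as known miR-29 targets were called higher in both tables, for example Sparc by 1.16 and 1.07 and Eln by 1.85 and 1.73 on the log2 scale. Of these 5 genes, 4 held TGGTGCT in an annotated 3′ UTR. The paper had already named Sparc as raised by LNA29 in these livers, so its rise here is not an independent check.

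Most markers of the macrophages that carry class II read lower with LNA29, and calls among them came only from L-Sirt1 KO-labelled mice. All 9 Kupffer cell or macrophage markers were below saline in WT/Floxed mice (median -0.37, 0 called), and their sum read 9420 to 41800 with LNA29 against 17500 to 29200 with saline. That sum read 16700 to 19900 against 21400 to 25000 in L-Sirt1 KO-labelled mice, without overlap, and the median marker differed by -0.31. Vsig4 (-0.54, adjusted p = 0.0891) and Clec4f (-0.29, adjusted p = 0.189), both markers of Kupffer cells, were called lower by limma there, 2 of 9 markers. Among all genes 1.87% were called in L-Sirt1 KO-labelled and 4.35% in WT/Floxed mice. Of all genes 3.3% were lower without overlap in L-Sirt1 KO-labelled mice. The 5 leukocyte markers had a median of -0.34 with 0 called in WT/Floxed mice, and -0.19 in L-Sirt1 KO-labelled mice, where Tyrobp was called lower (-0.46, adjusted p = 0.148). The 5 sinusoidal endothelial markers had medians of -0.02 in WT/Floxed and -0.05 in L-Sirt1 KO-labelled mice, with 2 of them above 0 in each, so the list as a whole did not fall. Among them only Lyve1, a hyaluronan receptor, was called lower, in both tables by limma. Lyve1 read 179.2 to 291.2 with LNA29 and 267.9 to 486.2 with saline in WT/Floxed mice (-0.51, adjusted p = 0.165), and 178.3 to 332.2 against 437.8 to 798.9 in L-Sirt1 KO-labelled mice (-1.17, adjusted p = 0.115), without overlap in the latter. These 4 genes are named after their values were seen. Dendritic cell, B cell and monocyte or neutrophil lists gave 0 calls by limma in both tables. In L-Sirt1 KO-labelled mice all 7 dendritic cell markers (median 0.18) and all 5 monocyte or neutrophil markers (median 0.32) had differences above 0, opposite in sign to the macrophage markers. In WT/Floxed mice the medians of these lists were 0.07 and -0.14, and that of the 6 B cell markers was -0.45.

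With the mean level of the leukocyte markers as a covariate, a model chosen after seeing the data, the differences of the class II members in WT/Floxed mice lay between -0.07 and 0.02. Cd74 then differed by 0.01 (-0.22 to 0.24) and Ctss by -0.07 (-0.25 to 0.10). In L-Sirt1 KO-labelled mice they lay between -0.13 (Ctss) and 0.43 (Ciita, -0.10 to 0.96). Ifi30 in the same model stood at 1.23 in WT/Floxed and 1.09 in L-Sirt1 KO-labelled mice. The covariate markers themselves read lower with LNA29 (medians -0.34 in WT/Floxed and -0.19 in L-Sirt1 KO-labelled mice). The adjusted differences thus depend on a level that differed between the treatments. The part of cell number in any of these differences was not tested.

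Of the 4 mouse groups, livers differed most among LNA29-treated WT/Floxed mice, which was also the largest group. The highest liver exceeded the lowest by 2.42-fold (Ciita) to 3.55-fold (Cd74) there, against 1.28-fold to 2.02-fold in WT/Floxed saline livers and 1.12-fold to 1.75-fold in L-Sirt1 KO-labelled livers. WT mouse 4 with LNA29 was the highest liver of its group for all 8 genes. The members varied together from liver to liver. After the mean of each group was subtracted, the 28 pairs of members had Pearson correlations of 0.48 to 0.99 (median 0.86) over 21 livers, all values of a liver coming from 1 library. Cd74 and the 3 chains were the tightest set (0.88 to 0.99).

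Among 12758 genes ranked by the same correlation, those most like Ifi30 were Cotl1 (0.98), Tyrobp (0.965), Nfam1 (0.959), Fam111a (0.957) and Wfdc17 (0.956). Tyrobp is an adaptor of activating receptors on myeloid and natural killer cells. Those most like Cd74 were H2-Aa (0.986), H2-Eb1 (0.97), Lpcat2 (0.953), Epsti1 (0.948) and Ctss (0.948). For Ifi30, Ctss ranked 20 with 0.94, while Cd74 gave 0.88 and Ciita ranked 1137 with 0.48. That value was 0.54 over the 13 WT/Floxed livers and 0.04 over the 8 L-Sirt1 KO-labelled livers, where Ctss gave 0.94 and 0.77 and Cd74 gave 0.88 and 0.83. When the group means were kept, the gene most like Ifi30 was Tdg (0.917) and the correlation of Ifi30 with Cd74 was 0.285.

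Set against Ctss, Ifi30 formed separate bands by treatment. WT/Floxed livers held 73.5 to 109 Ifi30 counts per 100 Ctss counts with LNA29 and 27.6 to 41.7 with saline. L-Sirt1 KO-labelled livers held 77.2 to 85.5 with LNA29 and 33.0 to 35.8 with saline. Per 100 Tyrobp counts the same ratio was 298 to 416 against 114 to 148 in WT/Floxed, and 304 to 342 against 113 to 135 in L-Sirt1 KO-labelled livers. Per 100 Ctss counts, Cd74 read 256 to 374 with LNA29 and 258 to 330 with saline in WT/Floxed livers, which overlapped. In L-Sirt1 KO-labelled livers it read 307 to 319 with LNA29 and 247 to 274 with saline, without overlap, Ctss being lower with LNA29 there. These ratios use the contrast by which Ifi30 was picked and are a description.

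**Figure D3:**
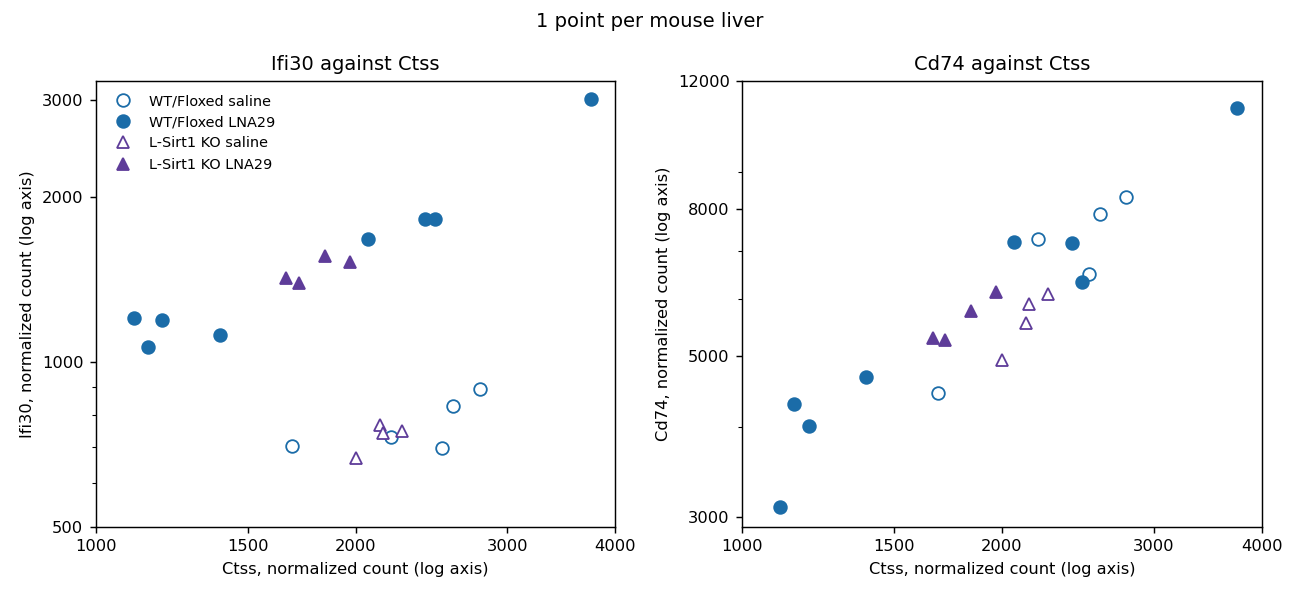
Ifi30 (left) and Cd74 (right) against Ctss in 21 mouse livers, in normalized counts on log axes. Filled symbols are LNA29 and open symbols saline, circles are WT/Floxed and triangles L-Sirt1 KO-labelled mice. LNA29 livers lie on a band of 73.5 to 109 Ifi30 counts per 100 Ctss counts and saline livers on a band of 27.6 to 41.7, while Cd74 per 100 Ctss counts overlaps in WT/Floxed livers (256 to 374 and 258 to 330) and lies at 307 to 319 with LNA29 and 247 to 274 with saline in L-Sirt1 KO-labelled livers.

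The same within-group correlations were computed against the mean level of each marker list. Ifi30 followed the leukocyte list with 0.95 and the Kupffer cell or macrophage list with 0.93, and Ctss followed both with 0.97. Cd74 gave 0.93 and 0.92. Ciita gave 0.66 and 0.64 and was closest to the dendritic cell list (0.78), for which Ifi30 gave 0.34. All correlations are over the same 21 livers and libraries, and Tyrobp is part of the leukocyte list.

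**Figure D4:**
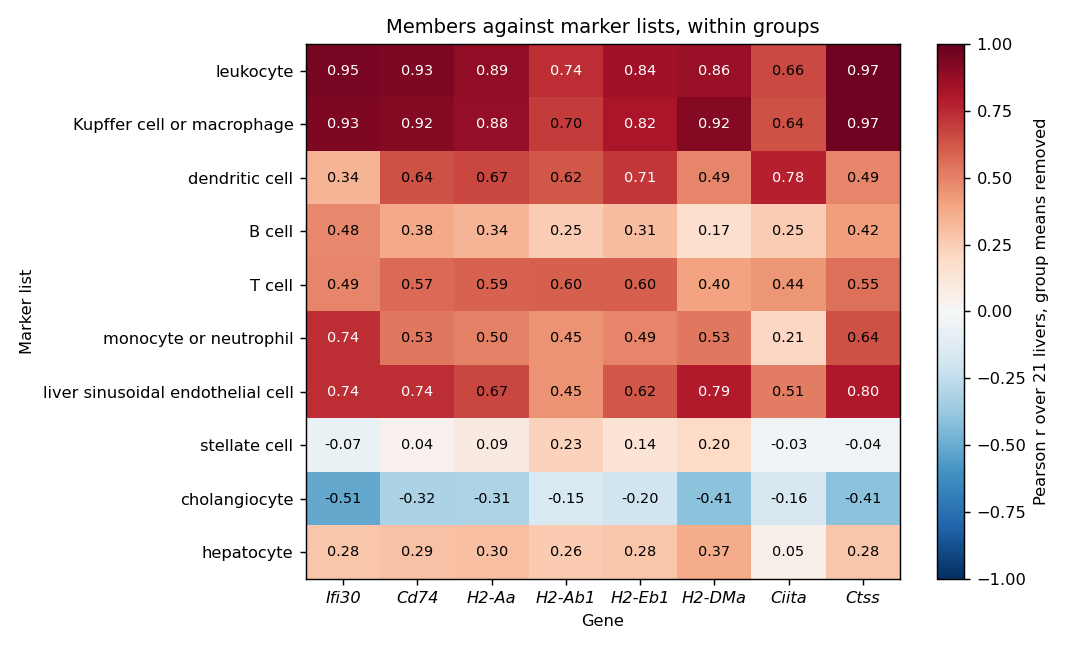
Pearson correlation (colour and number) over 21 mouse livers between each of the 8 genes (x axis) and the mean level of each cell type marker list (y axis), after subtraction of group means. The leukocyte and Kupffer cell rows hold 0.64 to 0.97, with Ciita lowest in both, and the hepatocyte row holds 0.05 to 0.37.

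Floxed and WT mice, which also differed in age, were compared within the WT/Floxed table with treatment in the model, a contrast that did not enter the choice of Ifi30. Of the 8 members 1 was called, against 14.7% of genes in either direction and 7.48% in the direction of lower in floxed mice. Ciita was lower in floxed mice, at 42.82 to 95.72 (mean 64.3 ± 19.2, SD, n = 6) against 66.66 to 103.4 in WT mice (mean 86.9 ± 11.9, SD, n = 7), a log2 difference of -0.46 (SE 0.185, adjusted p = 0.142 by limma). The ranges overlapped. The call was lost when any of 6 livers was left out, namely LNA29 mice 3 (-0.36), 4 (-0.398), 6 (-0.432) and 7 (-0.425) and saline mice 4 (-0.446) and 5 (-0.357). The other members differed by -0.32 (Cd74) to -0.02 (Ifi30, -0.48 to 0.44) and were not called. Among the other genes of the pathway, the NF-Y subunit Nfya (-0.33, adjusted p = 0.0399) and Gbp2 (-0.42, adjusted p = 0.188) were called lower in floxed mice by limma, and Irf1, an interferon-induced transcription factor, was called higher (0.61, adjusted p = 0.0292). Of the 5 matrix genes, 4 (Col1a1, Col3a1, Eln and Fbn1) were called lower in floxed mice.

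In rats Ifi30, Cd74 and Ctss passed the minimum mean of 10 and Ciita did not, with 0 to 10.57 normalized counts per library. ZFR were compared with ZLR at an adjusted p under 0.05, and 0 of the 3 members were called, against 4.25% of 8633 genes, with 0 at an unadjusted p-value under 0.05. Ifi30 read 99.47, 114.1, 87.74 and 88.66 in ZFR and 86.14, 77.64, 94.81 and 20.88 in ZLR. The groups overlapped, and the lowest ZLR value came from a library of 0.189 M reads. The log2 difference was 0.67 (SE 0.42, adjusted p = 0.463 by limma).

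Cd74 read 182.9, 290.8, 176.3 and 195.8 in ZFR and 83.14, 98.28, 192.2 and 205.8 in ZLR. The high ZLR values were those of the libraries of 0.188 and 0.189 M reads. The log2 difference was 0.62 (SE 0.307, adjusted p = 0.352 by limma). Without the 3 libraries under 1 M reads (3 ZFR against 2 ZLR, chosen after seeing the data), Cd74 was called higher in ZFR at 1.26 (SE 0.213, adjusted p = 0.0197 by limma), against 5.13% of genes. Ifi30 then differed by 0.29 (adjusted p = 0.357) and Ctss by 0.49 (adjusted p = 0.388). With all libraries Ctss differed by 0.73 (adjusted p = 0.427), at 32.67 to 61.75 in ZFR and 10.44 to 42.14 in ZLR.

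The rat class II chains carry RT1 names. RT1-Da, the α chain of the rat I-E counterpart, read 59.74, 93.81, 56.21 and 78.72 in ZFR and 28.75, 36.58, 41.99 and 31.22 in ZLR. Every ZFR value lay above every ZLR value, as for 7.8% of genes. RT1-Da was called higher in ZFR at 1.02 (SE 0.22, adjusted p = 0.031 by limma) and again without the libraries under 1 M reads (1.21, adjusted p = 0.0243). RT1-Bb also did not overlap (28.01 to 74.99 against 20.16 to 24.08) but missed the limit (0.76, adjusted p = 0.261), and RT1-Ba and RT1-Db1 differed by 0.33 and 0.34. RT1-DMa, RT1-DOa and RT1-DOb were below the minimum, and RT1-DMb was listed more than once and left out. Among lysosomal genes the inhibitor Cst3 was called higher in ZFR (1.00, adjusted p = 0.0138 by limma). No promoter factor and no interferon-gamma gene was called, the largest differences being 0.70 for Rfxap (adjusted p = 0.505) and 3.31 for Cxcl9 (adjusted p = 0.12), which was at 0 in a ZLR library. Of the 5 matrix genes, Col1a1, Col3a1 and Sparc were called higher in ZFR. The summed leukocyte markers read 103 to 125 in ZFR and 41.4 to 76.1 in ZLR, and the summed Kupffer cell markers 664 to 1060 and 698 to 886. Their part in the result was not tested.

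With BT2 the fit called no gene at all, whereas the paper reports lipogenic genes lower with BT2 by another test. The lack of calls therefore says little about the members. The BT2 libraries of 0.57 and 0.383 M reads and a vehicle library of 0.193 M reads were under 1 M. Of the 3 members 0 were called, as were 0% of 8405 genes, and 0 had an unadjusted p-value under 0.05 by limma. Ifi30 read 67.61, 64.08, 100.4 and 70.7 with BT2 and 91.99, 82.83, 76.09 and 103.2 with vehicle, a log2 difference of -0.24 (-0.67 to 0.20). Cd74 differed by 0.03 (-0.57 to 0.62) and Ctss by 0.28 (-0.62 to 1.17). RT1-Da differed by 0.23 (adjusted p = 0.925 by limma) and none of the 4 RT1 chains tested was called, the largest difference being 1.12 for RT1-Ba (adjusted p = 0.898), which was at 0 in a vehicle library. The Cd74 difference between ZFR and ZLR was 0.62. A rise of that size lay within the Ctss interval, at the upper end of the Cd74 interval and outside that of Ifi30. A fall of that size lay within the Ifi30 interval and outside that of Cd74.

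**Figure D5:**
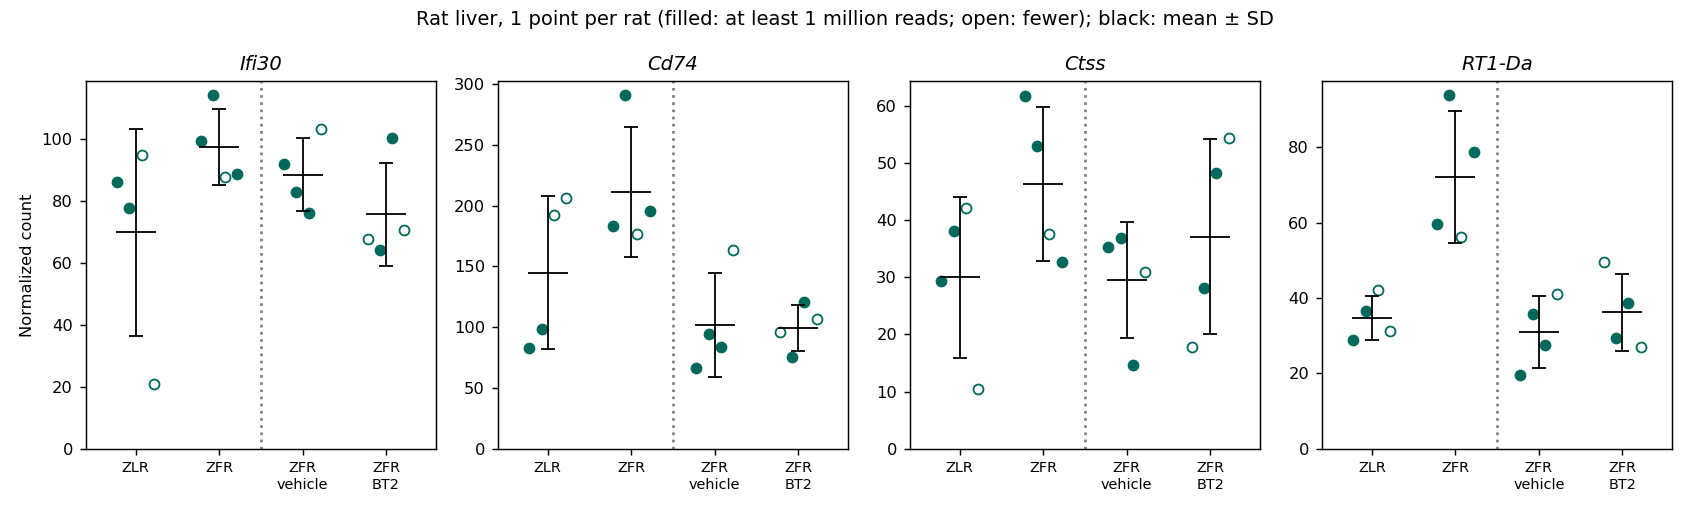
Normalized counts (y axis, linear, from 0) of Ifi30, Cd74, Ctss and RT1-Da in each of 16 rat livers. Filled points are libraries of at least 1 M reads and open points shallower ones, black lines are the mean ± SD, and the dotted line separates tables that were normalized separately. RT1-Da lies at 56.21 to 93.81 in ZFR, above ZLR at 28.75 to 41.99, while the other genes overlap.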

How the data were processed

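RNA-seq values of 37 livers were analysed (21 mice, 16 rats). The authors deposited a normalized signal from single-end polyA libraries, with reads aligned with STAR to mm10 or rn6, genes quantified with Salmon and estimated counts divided by DESeq2 factors, separately in each of 4 tables. Between 70.1% and 90.1% of low values were whole multiples of 1 read (tolerance 0.02), so reads were not recovered and no count model was run. Groups came from the titles, in which each library is a separate animal.

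Tests used limma 3.58.1 (R 4.3.3, eBayes with trend) on log2(normalized count + 1), a scale that understates changes of low genes, over genes with a mean of at least 10, with Benjamini-Hochberg adjustment over all of them. Unnamed entries (381 in mice, 201 in rats, at most 0.0461% of counts) and repeated names (130 and 4523) were left out. Members and lists were chosen with earlier results of these data known. Named are the 8 members, the 5 genes most like Ifi30 and Cd74, and from each list the genes called or else the one with the largest difference. A gene named by this rule is not reported here. Sequences were read from RefSeq and GENCODE M21 with Python 3.11.15. The tests were checked on simulated data.

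As alternatives, the pseudocount was set to 10, the minimum mean dropped, and these were tried: TMM scaling, sample quality weights, the flow cell, the background or the replicate number as a term, WT or floxed mice alone, an adjusted p under 0.05, shallow rat libraries left out, and each library left out in turn. After seeing the data, the leukocyte covariate and the limit of 1 M reads were added.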

Additional observations from a re-analysis of the deposited data

Results flagged for a closer look

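In 2 of 48 pairs of a member and a group, the highest sample stood apart from the others by Dixon's 95% limit, and chance gives about 1 in 20. Ifi30 in WT/Floxed mice with LNA29 was highest in WT mouse 4, at 3016 normalized counts, where the others read 1062 to 1821. The same liver was highest of its group for all 8 members. Without that liver, as without any other, the Ifi30 log2 difference from saline stayed between 0.845 and 1.06. Cd74 in ZFR was highest in rat 2, at 290.8 normalized counts, where the others read 176.3 to 195.8.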

How the results depend on the processing

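Over 301 values from alternatives other than leaving out a library, 275 stayed the same. For a single gene that meant the same direction and side of the limit, and for a count of calls an equal or similar count. For the Ifi30 response with LNA29 it meant a shift below the SD within groups, and for the correlation a value inside its leave-one-out range. Ifi30 with LNA29 stayed between 0.845 and 1.06 in WT/Floxed and between 0.97 and 1.04 in L-Sirt1 KO-labelled mice when each library was left out. The count of called class II members was 1 in place of 0 in L-Sirt1 KO-labelled mice with sample quality weights (Ctss, -0.276, adjusted p = 0.175), and 1 in place of 0 in ZFR against ZLR with quality weights (Cd74, 1.01, adjusted p = 0.00154) and without libraries under 1 M reads (Cd74, 1.26). Without libraries under 5 M reads 1 ZFR was left against 2 ZLR, the lone rat assumed to vary like the others. Cd74 then differed by 1.01, and no call is read from a group of 1 rat. For BT2 this was not run, as 1 library was left. The count for floxed against WT mice (1, Ciita) was 0 with no minimum mean, with an adjusted p under 0.05 and with the replicate block, and 0 to 1 on leaving out a library. With the replicate block Ciita stood at -0.229 and Ifi30 at 0.233 in place of -0.02. Same-numbered livers did not deviate together (correlations of -0.35 to 0.28), so they share only a number, and the block changed no other call. The correlation of Ifi30 with Cd74 was 0.285 with group means kept and 0.273 with each table centred, against 0.877. Small differences changed sign. In L-Sirt1 KO-labelled mice Cd74 was -0.00372 with TMM, -0.0148 with quality weights and -0.00647 with the flow cell, and H2-Ab1 was 0.00547 with quality weights. With the leukocyte covariate Cd74 was 0.0114, H2-Eb1 0.0229 and Ciita 0.0221 in WT/Floxed mice, and H2-Ab1 0.149, H2-Eb1 0.145 and H2-DMa 0.0576 in L-Sirt1 KO-labelled mice. Within WT mice Ciita was 0.0148. On leaving out a library the ranges that crossed 0 were, in L-Sirt1 KO-labelled mice, Cd74 -0.0592 to 0.0414, H2-Aa -0.0577 to 0.0647, H2-Ab1 -0.13 to 0.0422, H2-Eb1 -0.117 to 0.0294 and Ciita -0.00163 to 0.264. Between floxed and WT mice they were Ctss -0.303 to 0.0319, H2-DMa -0.273 to 0.0221 and Ifi30 -0.126 to 0.169, and for BT2 Cd74 -0.148 to 0.282 and Ctss -0.0166 to 0.575. The cause of these changes was not tested. Depth limits the rat values, where 1 read was worth up to 10.5 normalized counts.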
